A study of Mus musculus with 6 samples.

Results

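Basement membrane genes were followed in ureteric bud cells of mouse kidneys that lacked Dicer in that epithelium. The set held 38 genes, listed by name as known components of basement membranes, out of 19296 genes with a level on the arrays. It comprised 10 laminin chains, 6 type IV collagen chains, 3 genes of the Fraser complex, 4 proteoglycan core proteins, 2 tubulointerstitial antigens and 13 linkers, matricellular proteins and other components. Each of the 38 genes was represented by exactly 1 probe set, so no choice among probe sets was needed.

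Total RNA of cells sorted by FACS for YFP at E15.5 was hybridised to Affymetrix whole-transcript arrays, 3 with control and 3 with Dicer mutant cells. The mutant genotype is written Dicerc/-; Hoxb7Cre; Rosa26YFP, that is, 1 conditional and 1 null Dicer allele, a Cre transgene driven from Hoxb7 that is active in the ureteric bud, and a YFP reporter of Cre activity. Control cells are labelled wild type, although they were sorted on YFP as well, so whether they carried the Cre and the reporter is unknown and a Cre effect cannot be told apart from the Dicer genotype. Both groups were of mixed strain background, and the labels call the arrays biological replicates without saying whether embryos were pooled, so the p-values reflect the spread among these arrays, which may be technical.

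A basement membrane is a thin sheet of matrix under an epithelium. Laminins, heterotrimers of an alpha, a beta and a gamma chain, polymerise at the cell surface, a second network of type IV collagen is crosslinked beneath them, and nidogens and heparan sulfate proteoglycans join both networks. In the developing kidney this sheet separates the branching bud from the mesenchyme, and it carries ligands that mesenchymal integrins read. Dicer makes mature miRNAs, and 2 miRNA families have literature links to these genes. The miR-29 family is known to repress collagen IV, laminin and Sparc transcripts, and the miR-200 family, which is abundant in epithelia, is known to repress fibronectin. Their mature sequences (RefSeq, GRCm38.p6) are shown because Dicer makes their mature forms. Capitals mark the seed, bases 2 to 8.
miR-29a-3p: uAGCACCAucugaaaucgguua
miR-29b-3p: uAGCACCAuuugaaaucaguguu
miR-29c-3p: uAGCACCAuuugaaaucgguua
miR-200b-3p: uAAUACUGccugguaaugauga
miR-200c-3p: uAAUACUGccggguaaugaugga
The 3 miR-29 members share the seed AGCACCA, and miR-200b and miR-200c share AAUACUG. Mature miRNA levels were not measured on these arrays.

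Levels are the authors' RMA values on the log2 scale, so a difference of 1 is a doubling of the array signal. The median of an array lay between 7.47 and 7.54. Dicer1 itself was lower on each mutant array (9.64 to 9.80) than on any control array (10.25 to 10.38; limma, adjusted p = 0.0005). Of 15 ureteric epithelium markers, 14 had a mean above the median of all probe sets (7.51). In the mutant cells 7 of the 15 were lower and 1 (Wnt9b) higher (limma, adjusted p under 0.05). Of the 14 above that median 8 passed, beside 39.6% of all such genes. Fewer markers of other cell types lay above that median. Of 8 early nephron and proximal tubule markers 4 did, and of 7 cap mesenchyme markers 3 did. Of 12 stromal markers 3 lay above that median, of 10 endothelial markers 1 did, and none of 6 podocyte, 6 leukocyte or 3 erythroid markers did.

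The basement membrane genes moved in both directions. In limma's test over all genes, 16 of the 38 had an adjusted p under 0.05, with 9 higher and 7 lower in the mutant cells, whereas 25.8% of all genes passed (11.8% higher and 13.9% lower). The base depended on brightness: 14 of the 25 members above the median of all probe sets passed, where 39.6% of all genes did, and 2 of the 13 dimmer members passed, where 11.9% did. Brightness was the mean over all 6 arrays. Among the 14, Tinag was counted as brighter through its mutant arrays alone and Egfl6 through its control arrays alone. By class the share that passed ran from 30% (laminins) to 53.8% (linkers and others), over lists of 2 to 13 genes. The arrays of the groups did not overlap for 21 members, 11 higher and 10 lower, beside 42.5% of all genes (18.3% higher and 24.1% lower). The median log2 fold change of the 38 was 0.02, and that of all genes was -0.05. Changes were small except for Tinag: among the other 15 genes that passed, sizes ran from 0.18 (Frem2) to 0.75 (Nid2) on the log2 scale. A subset of 9 genes passed in the main test and in each of 13 refits with other settings or with 1 array left out: Tinag, Nid2, Sparc, Fn1, Fbln1 and Pxdn were higher, and Egfl6, Lamb3 and Lamb2 lower. The refit that left out dim genes kept Tinag, Egfl6 and Lamb3 only through the group where each was higher. Their passing in that refit is therefore no separate support. The number of members that passed fell from 16 to 10 without control replicate 2 and to 10 without mutant replicate 1. The number lower fell from 7 to 4 without control replicate 1, and to 3 without control replicate 2, mutant replicate 1 or mutant replicate 3.

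**Figure D1:**
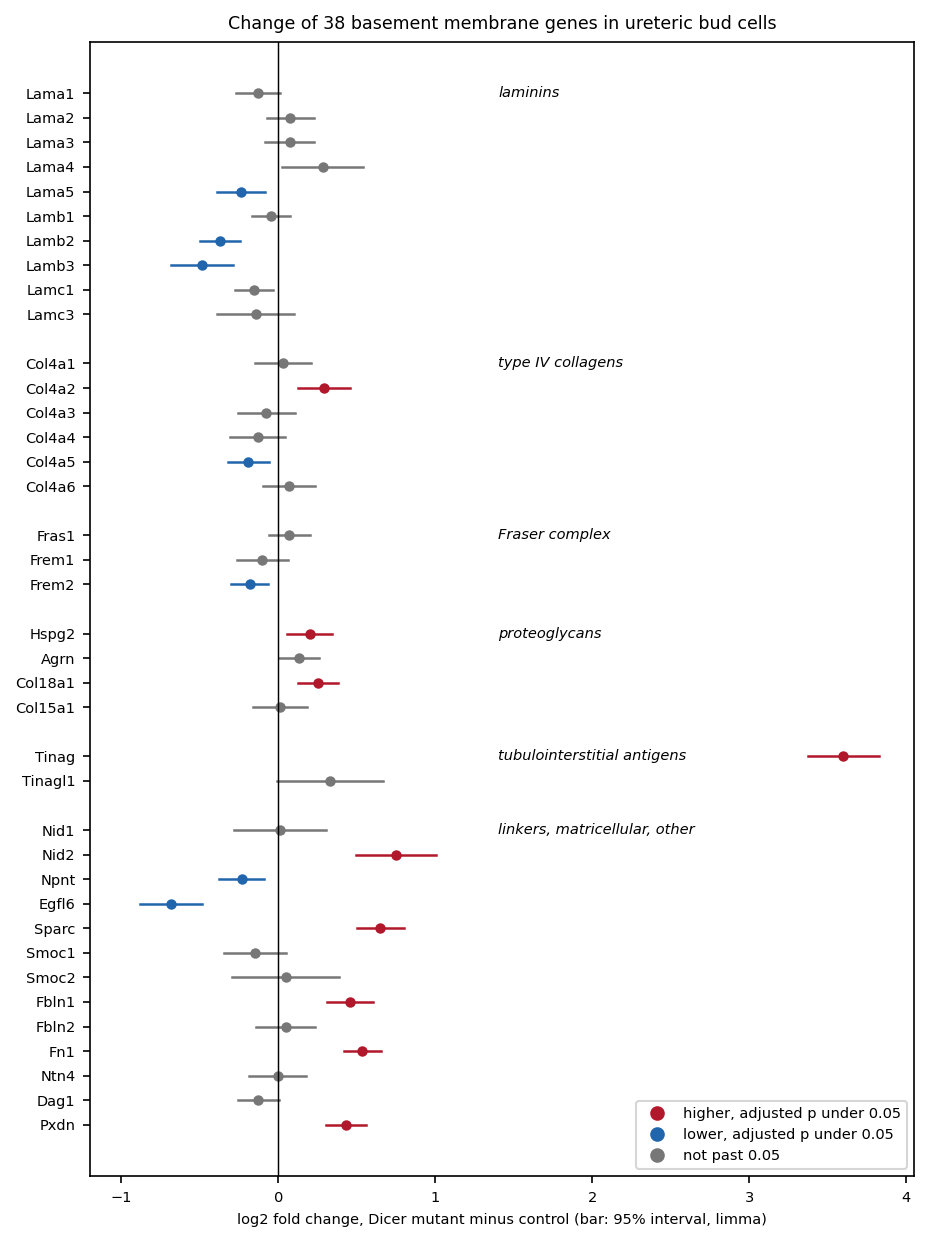
Log2 fold change (Dicer mutant minus control, horizontal axis) of the 38 basement membrane genes, grouped by class, with 95% intervals from limma. Red points are higher and blue points lower at an adjusted p under 0.05, and grey points did not pass. Tinag, at 3.60, stands far to the right of the other 37 genes, which lie between -0.68 and 0.75.

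The tubulointerstitial antigens gave the largest change in the set. Tinag (probe set 10595081) encodes the tubulointerstitial nephritis antigen, a secreted glycoprotein of tubular basement membranes and a target of autoantibodies in nephritis. Its control arrays read 5.81, 5.87 and 5.49, and its mutant arrays 9.29, 9.35 and 9.34. Every control array was below the median of all probe sets, every mutant array well above it, and the mutant arrays differed from one another by less than the control arrays did. The mean was 5.72 ± 0.20 in control and 9.32 ± 0.03 in mutant cells (SD, n = 3 each). The log2 fold change was 3.60 (95% interval 3.37 to 3.82), or 12.1-fold (adjusted p = 1.83e-06). RMA compresses changes of dim genes, and the table holds no detection call, so the control level is not shown to exceed background and the fold is one of array signal only.

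Tinagl1 (probe set 10516735), the related protein known as lipocalin 7 or TIN-ag-like, was bright in both groups. Its control arrays read 10.01, 9.41 and 9.46 and its mutant arrays 9.92, 9.94 and 10.01. Control replicate 1 stood apart from the other 2 controls and was level with the highest mutant array, so the groups overlapped. The log2 fold change of 0.33 (95% interval -0.01 to 0.67) did not pass (adjusted p = 0.142), while without control replicate 1 it was 0.52 (adjusted p = 0.00164). The change of Tinag exceeded that of Tinagl1 by 3.27 on the log2 scale. An exact two-sided permutation test of the per-array differences gave p = 0.1, the smallest that 3 against 3 arrays allow (0.2 adjusted over the 6 gene pairs compared).

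Tinag is best known from the proximal tubule, and 8 markers of the early nephron and proximal tubule were read beside it, 1 of which, Lhx1, is also a ureteric marker. Of these, Lrp2, Ccnd1 and Jag1 were higher, Slc34a1 and Hnf4a lower, and 3 did not pass. Among the 4 above the median brightness 3 passed, beside 39.6% of all such genes. Among the 4 dimmer ones 2 passed, beside 11.9%. Lrp2, the endocytic receptor megalin, went from 7.85, 7.82 and 7.49 on the control arrays to 8.71, 8.81 and 8.79 on the mutant arrays. Slc34a1, the phosphate transporter that defines the proximal tubule, went the other way, from 7.62, 7.50 and 7.01 to 6.62, 6.55 and 6.90. Cubn, the partner of megalin, did not pass (log2 fold change -0.51). The mean level over the 8 markers was 8.35 to 8.67 on control arrays and 8.51 to 8.56 on mutant arrays. The nephron progenitor marker Six2 also passed, with a log2 fold change of 3.29, as 1 of 7 measured cap mesenchyme markers, and the mean level of those 7 was 6.82 to 6.96 on control and 7.29 to 7.39 on mutant arrays. Six2 alone carried that rise: of the other 6 cap mesenchyme markers none passed and 5 had log2 fold changes below 0 (limma; Cited1 was higher at an unadjusted p of 0.0130), and their mean level was 6.81 to 6.95 on control and 6.79 to 6.91 on mutant arrays. The part of such cells in the Tinag result was not tested. In sorted samples, a changed number of cells of a type and a changed amount of RNA per cell cannot be told apart.

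The stretch before the annotated start of Tinag is shown with those of Sparc and Egfl6, as the genes of the set with the largest rise, a rise from an already bright level, and the largest fall. They were read 5′ to 3′ on the strand of the gene from the RefSeq promoter table (GRCm38.p6), 250 bases each. Tinag lies at chr9:77045782-77046031 (minus strand), Sparc at chr11:55420081-55420330 (minus strand) and Egfl6 at chrX:166585717-166585966 (minus strand). In Tinag the last 21 bases fall inside the annotated gene, and in the other 2 genes none do. Capitals mark matches, on either strand, to the GC box GGGCGG, the TATA box TATAAA, the CCAAT box or the AP-1 site TGACTCA. The matches shown do not overlap one another.
Tinag: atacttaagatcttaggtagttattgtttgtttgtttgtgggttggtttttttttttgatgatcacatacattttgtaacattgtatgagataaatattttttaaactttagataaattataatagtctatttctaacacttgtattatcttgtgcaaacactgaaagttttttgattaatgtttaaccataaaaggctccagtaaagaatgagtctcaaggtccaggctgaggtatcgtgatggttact
Sparc: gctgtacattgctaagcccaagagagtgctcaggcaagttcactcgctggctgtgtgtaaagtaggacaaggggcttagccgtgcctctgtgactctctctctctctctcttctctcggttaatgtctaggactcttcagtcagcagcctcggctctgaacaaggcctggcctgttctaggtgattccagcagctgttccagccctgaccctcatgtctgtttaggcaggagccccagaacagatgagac
Egfl6: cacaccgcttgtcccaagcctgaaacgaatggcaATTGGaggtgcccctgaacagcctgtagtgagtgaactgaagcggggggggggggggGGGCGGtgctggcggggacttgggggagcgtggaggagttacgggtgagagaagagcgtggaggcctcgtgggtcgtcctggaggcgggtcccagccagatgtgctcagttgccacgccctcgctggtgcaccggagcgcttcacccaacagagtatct
Of the bases shown, 28.8% were G or C in Tinag, 54.0% in Sparc and 64.8% in Egfl6. Egfl6 held a CCAAT box on the opposite strand, beginning 216 bases before the start, and a GC box on its own strand, beginning 159 bases before it. The Tinag and Sparc stretches held none of the 4 motifs. Promoters were listed for 27 of the 38 genes. The GC box was found in 15 of the 27 and in 32.9% of 27025 promoters of the same length. The CCAAT box was found in 10 of the 27 (34.5% of all), and the TATA box and the AP-1 site in 0 of the 27 (13.0% and 4.43% of all). The median share of G or C was 62.0% in the 27 and 52.0% in all promoters. These motif shares were not adjusted for it, and its part in them was not tested. A match here is a description of the letters and not a binding site.

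Of 10 laminin chains, 3 passed, all lower (Lamb3, Lamb2 and Lama5). That share of 30% lies near the 25.8% of all genes, and of the 6 chains above the median brightness 2 passed, beside 39.6% of such genes. The median log2 fold change was -0.14, with 7 of 10 values below 0. At an unadjusted p under 0.05 limma had 4 chains lower and 1 higher (Lama4).

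Lamb3 (probe set 10352838), a beta chain of the laminin of stratified epithelia, showed the largest fall among the laminins. Its control arrays read 7.75, 7.74 and 7.49 and its mutant arrays 7.26, 7.10 and 7.16, without overlap. The mean was 7.66 ± 0.15 in control and 7.17 ± 0.08 in mutant cells (SD, n = 3 each). The log2 fold change was -0.48 (adjusted p = 0.00457). Lama3, the alpha chain that pairs with it, read 6.79, 6.74 and 6.65 in control and 6.84, 6.86 and 6.70 in mutant cells, and these ranges overlapped. Its log2 fold change was 0.07 (95% interval -0.08 to 0.23).

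Lamb2 (probe set 10588942) encodes the beta chain of mature glomerular and synaptic laminins, mutated in Pierson syndrome. It read 9.29, 9.29 and 9.34 on control arrays and 8.90, 9.00 and 8.90 on mutant arrays, so each mutant array lay below each control. The log2 fold change was -0.37 (SE 0.06, 1.30-fold lower, adjusted p = 0.00216). Lamb1, the beta chain of embryonic laminins, was bright and close to level, at 11.65, 11.61 and 11.57 in control and 11.58, 11.57 and 11.54 in mutant cells. Its log2 fold change of -0.05 had a 95% interval of -0.17 to 0.08.

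The 2 alpha chains of bud laminins were both bright. Lama5, whose loss disturbs kidney branching in mice, read 10.98, 10.85 and 10.84 in control and 10.67, 10.72 and 10.57 in mutant cells. Its log2 fold change was -0.24 (95% interval -0.39 to -0.08, adjusted p = 0.0340). This call was not held without control replicate 1 (adjusted p = 0.0897), control replicate 2 (0.0576), mutant replicate 1 (0.0906) or mutant replicate 3 (0.111). Lama1, the chain of early embryonic basement membranes, read 10.97, 10.91 and 10.96 against 10.73, 10.88 and 10.85, without overlap, and did not pass (log2 fold change -0.13, adjusted p = 0.171). The changes of Lama1 and Lama5 differed by 0.11, and the per-array differences overlapped between groups (exact two-sided permutation p = 0.2).

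Lamc1, the gamma chain shared by most laminins, was bright, at 12.09, 12.10 and 12.09 in control and 11.89, 11.97 and 11.95 in mutant cells. All mutant arrays lay below all control arrays, but the log2 fold change of -0.16 did not pass (adjusted p = 0.0633). Lama4, an alpha chain of endothelial and mesenchymal basement membranes, read 7.93, 7.79 and 7.95 against 8.00, 8.43 and 8.09. Mutant replicate 2 was the high array, and the log2 fold change of 0.28 did not pass (adjusted p = 0.106; 0.15 without mutant replicate 2). Of 10 endothelial markers read beside it, 9 of them dim, Plvap alone passed and was lower. At an unadjusted p under 0.05 limma had 3 lower. The median log2 fold change of the 10 was -0.22, with 9 values below 0 and 1 above. The mean level of the 10 was 6.67 to 7.06 on control and 6.50 to 6.80 on mutant arrays. The part of endothelial cells was not tested. Lama2, the muscle laminin chain, and Lamc3, a minor gamma chain, were dim in both groups, with log2 fold changes of 0.08 and -0.14 that did not pass.

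**Figure D2:**
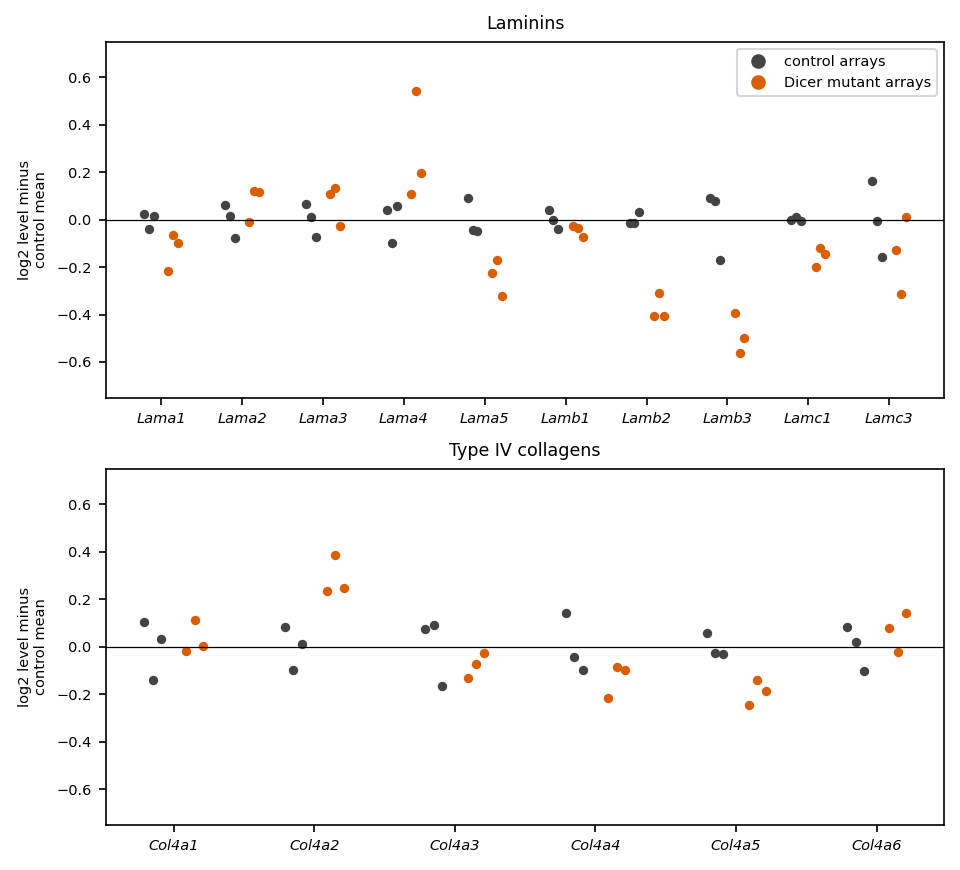
Level of each laminin chain (upper panel) and type IV collagen chain (lower panel) on every array, as the log2 difference from the mean of the control arrays; grey points are the 3 control arrays and orange points the 3 Dicer mutant arrays. The mutant points of Lamb2, Lamb3 and Lama5 lie below the control points and those of Col4a2 above them, while Col4a1, its neighbour in the genome, overlaps.

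Type IV collagen comes from 3 pairs of genes, each arranged head to head in the genome, and the pairs make different trimers. Of the 6 chains, Col4a2 was higher, Col4a5 was lower and 4 did not pass, and the median change was -0.02. The share that passed was 33.3%, beside 25.8% of all genes. Both calls were sensitive to single arrays.

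Col4a1 and Col4a2 form the collagen IV of nearly all basement membranes. In RefSeq (GRCm38.p6) they lie on opposite strands of mouse chromosome 8 with listed starts 21 bases apart. Windows of 250 bases before and 50 bases after each start overlap by 78 bases. The stretches of 250 bases before each start do not overlap. Col4a2 (probe set 10570068) read 8.65, 8.47 and 8.58 in control and 8.80, 8.96 and 8.82 in mutant cells. All mutant arrays lay above the controls, with a log2 fold change of 0.29 (95% interval 0.13 to 0.45, adjusted p = 0.0190). The call was not held without control replicate 2 (adjusted p = 0.0605) or mutant replicate 2 (0.0661). Col4a1 (probe set 10576973) read 9.46, 9.22 and 9.39 against 9.34, 9.47 and 9.36, with overlap, and its log2 fold change was 0.03 (95% interval -0.15 to 0.21). Within arrays the change of Col4a2 exceeded that of Col4a1 by 0.26, with standard deviations of the per-array difference of 0.04 in control and 0.02 in mutant cells, and the differences did not overlap between groups. The exact two-sided permutation p was 0.1, the smallest possible here (0.2 adjusted over 6 pairs).

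Col4a5 and Col4a6 lie head to head on the X chromosome with listed starts 1343 bases apart. Col4a5, the X-linked Alport syndrome gene, read 7.56, 7.47 and 7.47 in control and 7.26, 7.36 and 7.32 in mutant cells. Its log2 fold change of -0.19 passed narrowly (adjusted p = 0.0440) and did not pass when any of the 6 arrays was left out (adjusted p 0.0581 to 0.164). Col4a6 read 6.61, 6.55 and 6.43 against 6.61, 6.51 and 6.67, with overlap and a log2 fold change of 0.07. The 2 changes differed by -0.26 (exact two-sided permutation p = 0.1; 0.2 adjusted over 6 pairs). Col4a3 and Col4a4, which join Col4a5 in the mature glomerular collagen, were dim in both groups. Their log2 fold changes of -0.08 and -0.13 did not pass, and they differed from each other by 0.06 (exact two-sided permutation p = 0.4).

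The Fraser complex, which anchors embryonic epithelia and whose loss causes renal agenesis, had 1 of its 3 genes lower. Of all genes 13.9% were lower. Frem2 (probe set 10498119) read 12.51, 12.56 and 12.53 in control and 12.33, 12.37 and 12.36 in mutant cells. The groups did not overlap, and the log2 fold change was -0.18 (95% interval -0.30 to -0.07, adjusted p = 0.0319). The adjusted p was 0.0520 to 0.124 when single arrays were left out, so the call did not hold in any of those 6 fits. Fras1, its partner, read 11.80, 11.72 and 11.72 against 11.77, 11.87 and 11.79 and did not pass (log2 fold change 0.07). Frem1, the third of the complex, was dim, at 7.27, 7.18 and 7.25 against 7.15, 7.24 and 7.01 (log2 fold change -0.10, not passed). The changes of Frem1 and Frem2 differed by 0.08 (exact two-sided permutation p = 0.3).

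Of 4 proteoglycan core proteins, 2 were higher and 2 did not pass, and all 4 log2 fold changes were above 0 (median 0.16). Of the 3 above the median brightness 2 passed, beside 39.6% of all such genes. Col18a1 (probe set 10370259), which releases endostatin, read 9.69, 9.57 and 9.65 in control and 9.89, 9.91 and 9.87 in mutant cells. Its log2 fold change was 0.25 (adjusted p = 0.0128; 0.0516 without mutant replicate 1). Hspg2, perlecan, read 11.13, 10.96 and 11.01 against 11.23, 11.25 and 11.21. Its log2 fold change of 0.20 stood at the threshold (adjusted p = 0.0483). It passed without control replicate 1 (adjusted p = 0.0242) and in none of the other 5 fits that left out an array, whose adjusted p ran from 0.0933 without control replicate 3 to 0.134 without control replicate 2.

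Agrn, agrin, read 10.65, 10.59 and 10.70 in control and 10.75, 10.80 and 10.77 in mutant cells. These ranges did not overlap, but the log2 fold change of 0.13 did not pass (adjusted p = 0.130). Col15a1, a close relative of Col18a1, was dim and level, with a log2 fold change of 0.01 (95% interval -0.16 to 0.18).

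The largest group of calls came from the longest list, the linkers, matricellular proteins and other components. Of its 13 genes, 5 were higher, 2 lower and 6 did not pass. Of the 10 above the median brightness (Egfl6 through its control arrays alone) 7 passed, beside 39.6% of all such genes. Nid2 (probe set 10412921), a nidogen that ties laminin to collagen IV, read 7.70, 7.48 and 7.42 in control and 8.10, 8.28 and 8.47 in mutant cells. The mean was 7.53 ± 0.15 in control and 8.28 ± 0.19 in mutant cells (SD, n = 3 each), which is 1.68-fold higher (adjusted p = 0.00202). Nid1, the other nidogen, read 7.08, 6.63 and 6.77 against 6.81, 7.01 and 6.69, with overlap, and its log2 fold change was 0.01 (95% interval -0.28 to 0.30).

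Sparc (probe set 10386058), a collagen-binding matricellular protein, was bright in both groups. It read 11.37, 11.37 and 11.22 in control and 12.00, 12.00 and 11.90 in mutant cells, and the groups lay well apart. The log2 fold change was 0.65 (SE 0.07, 1.57-fold, adjusted p = 0.000359). Its relatives Smoc1 and Smoc2 did not pass. Smoc1 was dim (log2 fold change -0.15), and Smoc2 spread widely among controls, at 9.23, 9.76 and 9.52, with mutant arrays at 9.69, 9.65 and 9.30 (log2 fold change 0.05, 95% interval -0.29 to 0.39).

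Fn1 (probe set 10355403), fibronectin, read 11.55, 11.52 and 11.59 in control and 12.07, 12.09 and 12.10 in mutant cells. The spread within each group was a small part of the gap between them, and the log2 fold change was 0.53 (SE 0.05, 1.45-fold, adjusted p = 0.000306). Fbln1, a fibulin that binds fibronectin and laminin, read 10.60, 10.49 and 10.55 against 10.92, 11.07 and 11.02 (log2 fold change 0.46, adjusted p = 0.00155). Fbln2 did not pass, at 9.74, 9.44 and 9.61 against 9.65, 9.69 and 9.59 (log2 fold change 0.05).

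Sparc, Fn1, Fbln1 and Nid2 are also made by stromal cells, so the 12 stromal markers are given beside them. Of these, 1 passed, the smooth muscle actin Acta2, which was lower (log2 fold change -0.72). The fibrillar collagens Col1a1, Col1a2 and Col3a1 had log2 fold changes of -0.10, -0.16 and 0.04, and Pdgfra one of -0.20, none of which passed. Postn (0.34), Foxd1 (0.17), Pdgfrb (0.16) and Dcn (0.10) lay above 0 and did not pass either. Of the 12 markers 5 were above 0 and 7 below, with a median of -0.01. The mean level of the 12 markers was 6.57 to 6.73 on control arrays and 6.54 to 6.69 on mutant arrays, and 9 of the 12 were dim (at or under 7.51). The part of stromal cells in these 4 results was not tested.

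Pxdn (probe set 10395103), peroxidasin, makes the sulfilimine crosslinks of collagen IV. It read 11.34, 11.31 and 11.39 in control and 11.74, 11.82 and 11.77 in mutant cells, without overlap. The log2 fold change was 0.43 (SE 0.06, 1.35-fold, adjusted p = 0.00107).

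Egfl6 and Npnt, both lower, encode related EGF-repeat proteins that bind the integrin made with Itga8, which the mesenchyme carries. Egfl6 (probe set 10607848) read 7.94, 7.95 and 8.10 in control and 7.44, 7.35 and 7.16 in mutant cells. This was the largest fall of the set, with means of 8.00 ± 0.09 in control and 7.32 ± 0.15 in mutant cells (SD, n = 3 each) and a 1.60-fold lower signal (adjusted p = 0.00101). Npnt, nephronectin, which the bud secretes and which is needed for Gdnf expression in the mesenchyme, was bright, at 11.91, 12.00 and 11.89 against 11.73, 11.74 and 11.63. The groups did not overlap, and its log2 fold change was -0.23 (adjusted p = 0.0244). The call of Npnt was not held without control replicate 2 (adjusted p = 0.0749), mutant replicate 1 (0.0647) or mutant replicate 3 (0.0860).

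Dag1, dystroglycan, the laminin receptor counted with the set, read 11.06, 11.06 and 11.15 in control and 10.97, 10.99 and 10.92 in mutant cells. The arrays did not overlap, but the log2 fold change of -0.13 did not pass (adjusted p = 0.141). Ntn4, a netrin that caps laminin polymers, was dim and level (log2 fold change -0.01, 95% interval -0.18 to 0.17).

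**Figure D3:**
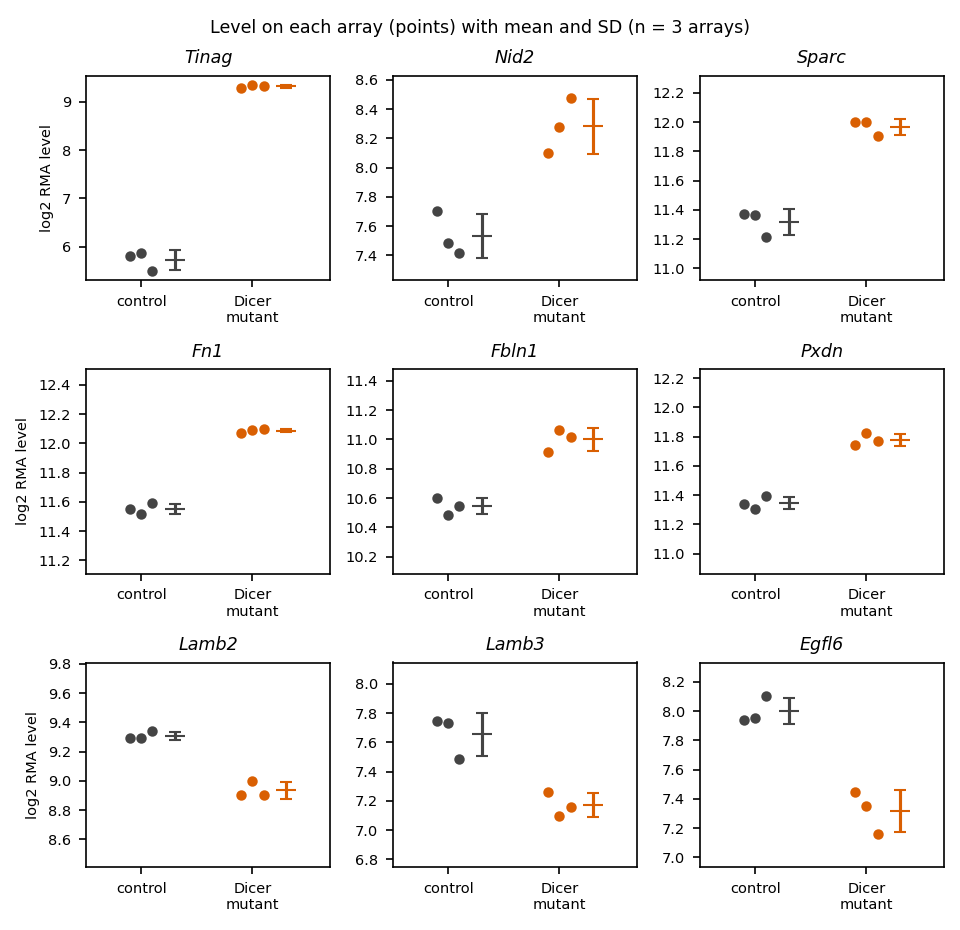
Log2 RMA level on each array of the 9 basement membrane genes that passed in the main test and in all 13 refits, with the mean and SD beside the points (n = 3 arrays per group; vertical axes differ between panels and do not start at 0). In each panel the control (grey) and Dicer mutant (orange) arrays are separate, with Tinag moving by 3.60 and Lamb2 by -0.37.

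Of 5 genes of the set listed as literature targets of miR-29, 2 were higher (Sparc and Col4a2) and 3 did not pass (Col4a1, Col15a1 and Lamc1). Of the 4 above the median brightness 2 passed, beside 39.6% of all such genes, so the count lies near that share. The log2 fold changes of the 5 ran from -0.16 (Lamc1) to 0.65 (Sparc), with a median of 0.03. Fn1, linked above to miR-200, was higher by 0.53.

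Other genes that act on the basement membrane were counted from lists of receptors and of matrix synthesis. Of 18 receptors, 7 were higher, 1 (Itga1) lower and 10 did not pass, and their median change was 0.03. Of the 15 receptors above the median brightness 8 passed, beside 39.6% of such genes. Itgb8 was counted among them through its mutant arrays alone. The integrin subunits Itgb8, Itgav and Itga2 had the smallest p-values. Itgb8 read 7.22, 7.41 and 7.65 in control and 9.80, 9.85 and 10.05 in mutant cells, a log2 fold change of 2.47 (adjusted p = 2.11e-05). Itgav, its alpha partner, was higher by 0.77 and Itga2, a subunit of a collagen receptor, by 0.76. Itga3 and Itga6, the alpha subunits of the main epithelial laminin receptors, did not pass, and neither did Itga8. Their beta partners were higher, Itgb1 by 0.20 (limma, adjusted p = 0.0265) and Itgb4 by 0.33 (adjusted p = 0.0163).

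Of 13 measured genes of collagen folding, export and crosslinking, 5 were higher and 8 did not pass (median 0.15). At an unadjusted p under 0.05, limma had 6 higher and 1 lower. Of the 10 above the median brightness 5 passed, beside 39.6% of such genes. Those with the smallest p-values were the vesicle coat gene Sec23a (0.98), the lysyl oxidase Loxl1 (0.66) and the collagen export receptor Mia3 (0.44). Serpinh1, the collagen chaperone, did not pass. Of 13 measured genes of heparan sulfate synthesis and trimming, 3 were higher and 10 did not pass (6 higher and 1 lower at an unadjusted p under 0.05): the sulfotransferase Hs6st2 (log2 fold change 0.90), the sulfatase Sulf2 (0.90) and the chain polymerase Ext1 (0.43). That share of 23.1% lies below the 25.8% of all genes, and of the 10 above the median brightness 2 passed, beside 39.6%. Of 6 measured genes listed under dystroglycan glycosylation, Pomt2 was higher (0.35), Pomk was lower (-0.22), B3gnt2 was lower (-0.35) and 3 did not pass. All 6 were above the median brightness, and the 50% that passed stands beside 39.6% of such genes. Pomt2 starts the O-mannose chain, Pomk phosphorylates it, and B3gnt2 is known for making poly-N-acetyllactosamine and not for acting on that chain.

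**Figure D4:**
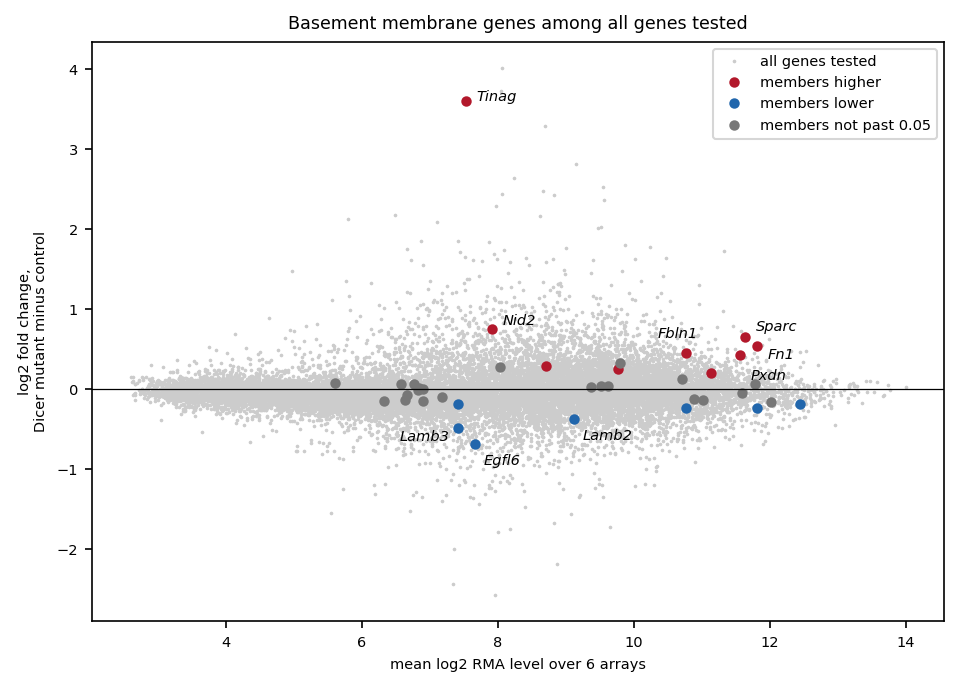
Log2 fold change (Dicer mutant minus control, vertical axis) against mean log2 RMA level over the 6 arrays (horizontal axis) for 19296 genes (light grey), with the 38 basement membrane genes as larger points (red higher, blue lower, dark grey not past an adjusted p of 0.05). Tinag lies near the top edge of all genes, whereas the other members lie within the main cloud, between -0.68 and 0.75.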

How the data were processed

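The authors deposited log2 RMA values, 1 per probe set and array, of 6 Affymetrix whole-transcript arrays (3 control, 3 Dicer mutant). Per the submitters' processing notes the tools were RMA and affy. Tool versions, filters and the genome build were not given in the sources used here. This method equalises array distributions, so a shift shared by most transcripts would be removed. The platform annotation gave a single symbol for 20728 of 23309 probe sets, and the one with the highest mean per gene was kept, leaving 19296 genes, with no filter on brightness and no coordinates.

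Genotype was the only term of a linear model fitted across all genes (limma 3.58.1, R 4.3.3, Benjamini-Hochberg over all genes, threshold 0.05, two-sided), tested on simulated data. With 50 genes changed per size, it recovered 0% of log2 changes of 0.25, 72% of 0.5 and 96% of 1. Far fewer genes changed there than passed in the data, so these rates need not hold here. A gene that did not pass is not shown to be unchanged. Gene pairs were compared by exact permutation. The members, lists and pairs were chosen with earlier results of these data known. The text names all members, Dicer1 and, of each other list, up to 3 genes past the threshold by smallest p; others (marker genes, Itga1, Itgb1, Itgb4, Itga3, Itga6, Itga8, Serpinh1) were named after their values were seen. Other settings tried were a replicate block, leaving out single arrays or dim genes, median centring or quantile normalization, probe set means, a variance trend, array weights and other thresholds. The number of arrays limits the precision. Figures used matplotlib 3.10.9.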

Additional observations from a re-analysis of the deposited data

How the results depend on the processing

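The 9 genes named as passing in each refit kept their direction and their side of the threshold in all 13 refits, and none of the 16 genes that passed changed sign in any of them. The labels do not say whether the replicate number is a pairing. Same-numbered control and mutant arrays had correlations of deviations of -0.23, -0.09 and -0.19, and differently numbered ones 0.02 to 0.18. Deviations sum to 0 within each group of 3 arrays, which constrains these values, so they cannot settle the pairing. Calls lost under a replicate block are given below and are not read as weaker effects. With the replicate number as a block, 6 members were higher and 3 lower (9 and 7 without it), with 0 type IV collagens, 0 Fraser complex genes and 0 proteoglycans past the threshold (limma; 2, 1 and 2 at an unadjusted p under 0.05). At an adjusted p of 0.01, 3 members were lower, and again 0 type IV collagens, 0 Fraser complex genes and 0 proteoglycans passed (limma; 2, 1 and 3 at an unadjusted p under 0.05). Quantile normalization and median centring each left 1 type IV collagen and 0 Fraser complex genes, and turned Ntn4 to 0.058 and 0.028. Leaving out genes with both group means below the overall median kept 26 of the 38 members. Lamb3 and Egfl6 were kept through their control arrays alone and Tinag through its mutant arrays alone, so their passing there is no separate support. This fit gave 5 laminins and 1 type IV collagen. Over the genes kept, medians were 0.16 for type IV collagens and 0.24 for the linkers and other members. The variance trend left 1 type IV collagen, and array weights gave 2 tubulointerstitial antigens. With 1 array left out, 7 to 10 members were higher and 3 to 5 lower. The counts were then 2 to 3 for laminins, 0 to 1 for type IV collagens, 0 for the Fraser complex (1 in each of these fits at an unadjusted p under 0.05), 0 to 2 for proteoglycans and 1 to 2 for tubulointerstitial antigens. Medians ran from -0.021 to 0.071 for all members, from -0.071 to 0.022 for type IV collagens, from -0.15 to -0.040 for the Fraser complex and from -0.010 to 0.12 for the linkers and other members. Genes near 0 changed sign with 1 array left out: Col4a1 (-0.038 to 0.084), Col15a1 (-0.058 to 0.052), Nid1 (-0.089 to 0.14), Smoc2 (-0.091 to 0.17), Fbln2 (-0.035 to 0.12) and Ntn4 (-0.065 to 0.059). The differences within the 6 gene pairs kept their sign. Beyond what is stated, the cause of these shifts was not tested.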
